A study of Mus musculus with 4 samples.

Results

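The genes described are the receptors and canonical ligands of the Notch pathway: the receptors Notch1, Notch2, Notch3 and Notch4, the Delta ligands Dll1 and Dll4, and the Jagged ligands Jag1 and Jag2. They were chosen by name, as every probe set that the platform annotation gives to 1 of these 8 genes alone. These genes and the lists used below were chosen with earlier results of these data known. Their counts beside those of all genes are therefore descriptive. This gave 17 of the 45101 probe sets on the array, 9 for receptors and 8 for ligands. Dll1 had 1 probe set, Jag1 and Notch4 had 3 each, and the other genes had 2 each.

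RNA was taken from whole kidneys excised from mouse embryos at E14.5 (Theiler stage 22), amplified in 1 round and hybridised to 4 Affymetrix Mouse430_2 arrays. The wild-type group had 2 arrays, each with a pool of 2 kidneys from the strain given as CD-1. The Wnt4 mutant group had 2 arrays, each with a pool of 12 kidneys null for Wnt4 through the allele Wnt4tm1Amc, with the strain given as 129. The groups thus differ in genotype, in stated strain and in pool size, which cannot be told apart. The shared protocol text describes CD-1 matings, so the strain of the mutant kidneys is not certain. The p-values measure the spread between pools, which the labels do not assign to separate litters. The study asked which genes belong to the renal vesicle, the earliest epithelial form of a nephron, and to its later forms, which kidneys without Wnt4 lack.

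Notch signalling passes between touching cells. A Delta or Jagged protein on one cell binds a Notch receptor on its neighbour, proteases cut the receptor, and the freed intracellular part enters the nucleus, where it joins the DNA-binding protein Rbpj and turns on genes of the Hes and Hey families. In the forming nephron, Jag1 and Dll1 are known from the renal vesicle and the S-shaped body, and Notch2 is the receptor most needed for proximal tubules and podocytes. Dll4 and Notch4 are best known from endothelium and Notch3 from the mural cells of vessels.

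Among these genes, Dll1, Jag1 and Notch1 were lower in the mutant kidneys. At their brightest probe sets Dll1 was 3.74-fold, Jag1 3.51-fold and Notch1 1.55-fold lower. The fall in Jag1 rests on 1 of its 3 probe sets: the others read 1.29-fold and 1.24-fold lower without passing, and the mean of the 3 had a log2 difference of -0.83. The probe sets of Notch2, Notch3, Notch4, Dll4 and Jag2 did not pass the test in either direction. Of 17 probe sets, 16 were bright enough to test, and 3 of them were called lower and 0 higher, where a call is a limma p adjusted over all 27022 tested probe sets below 0.05. Over all tested probe sets, 5.39% were called lower and 5.41% higher. With each gene represented by its tested probe set of highest mean, 3 of 8 genes were called lower and 0 higher, against 5.82% and 6.70% of the 13432 genes tested. At an unadjusted p below 0.05 the probe sets also numbered 3 and 0, against 13.4% lower and 12.3% higher over all tested probe sets. The median log2 difference of the 8 genes was -0.27, and that of all genes tested was 0.00027. Differences are mutant minus wild-type on the scale log2(signal + 16), and 7 of 8 were below 0.

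**Figure D1:**
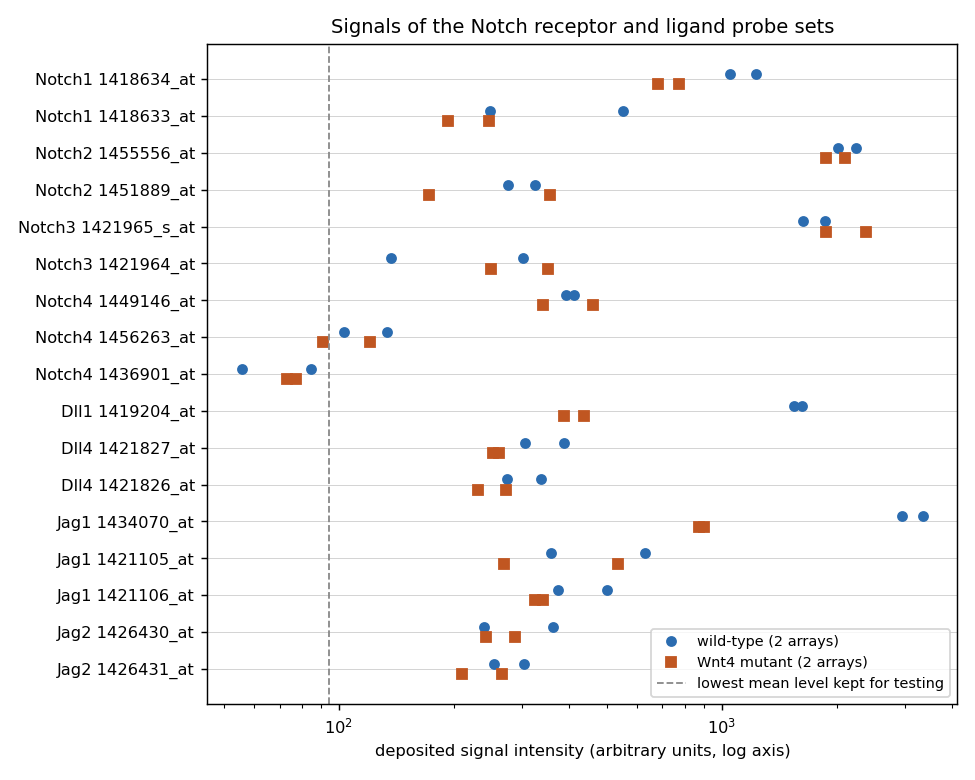
Deposited signal intensity (arbitrary units, log axis) of each of the 17 Notch receptor and ligand probe sets on the 2 wild-type arrays (circles) and the 2 Wnt4 mutant arrays (squares), with the lowest mean level kept for testing, 94.2, as a dashed line. The wild-type and mutant points lie far apart for Dll1 1419204_at (1544 and 1618 against 387 and 437) and Jag1 1434070_at, and Notch4 1436901_at lies below the line.

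Each of the 4 arrays had been scaled before deposit, to a mean of 500.0 after the lowest and highest 2% of signals were trimmed, and median signals ran from 138 to 159. The number of arrays limits the precision. Correlations of log2 signals between arrays ran from 0.953 to 0.974 across probe sets, which are not replicates. At the brighter of its 2 probe sets, Wnt4 read 1885 and 1770 in wild-type and 406 and 272 in mutant kidneys, a 5.28-fold lower level (limma adjusted p = 0.000196), and the place of these probe sets in the mutated locus was not analysed here. Markers of the labelled organ were read on every array, though detection was not assessed. The progenitor gene Six2 read at least 2670, the stromal gene Foxd1 at least 2028 and the ureteric receptor gene Ret at least 252. Hoxb7, another ureteric marker, was dimmer, at 92.0 and 96.8 in wild-type and 70.4 and 136 in mutant kidneys. In whole organs, fewer cells of a type and less RNA per cell cannot be told apart.

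Dll1, a Delta ligand, had the largest difference of the 8 genes. Its only probe set, 1419204_at, read 1544 and 1618 in wild-type kidneys and 387 and 437 in mutant kidneys. Both mutant arrays were far below both wild-type arrays, and the arrays of a genotype lay close together. The means were 1581 ± 52.4 (SD, n = 2) and 412 ± 35.3 (SD, n = 2). The log2 difference was -1.90 ± 0.12 (SE), a 3.74-fold lower level, with a 95% interval from -2.18 to -1.62 and a limma adjusted p of 9.22e-05. Of all tested probe sets, 155 (0.574%) had a still lower difference. When any 1 array was left out the log2 difference ran from -1.99 to -1.82, and Dll1 passed the test each time.

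Jag1, a Jagged ligand, was lower by nearly as much at its brightest probe set. Probe set 1434070_at read 2948 and 3359.9 in wild-type kidneys and 896 and 873 in mutant kidneys, so that the mutant arrays were well below the wild-type arrays and close to each other. The means were 3154 ± 291 (SD, n = 2) and 885 ± 16.7 (SD, n = 2), a log2 difference of -1.81 ± 0.10 (SE) with a 95% interval from -2.05 to -1.58. This was 3.51-fold lower (limma adjusted p = 6.07e-05), and 175 tested probe sets (0.648%) had a lower difference. It passed the test without any 1 array, with log2 differences from -1.91 to -1.72.

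The other probe sets of Jag1 showed far smaller differences. Probe set 1421106_at read 373 and 502 in wild-type against 326 and 341 in mutant kidneys. The mutant arrays were again below the wild-type arrays, but the log2 difference was -0.36 with an interval from -0.79 to 0.07 (limma adjusted p = 0.274). Probe set 1421105_at read 358 and 632 against 269 and 536, with overlapping groups, and its log2 difference was -0.31 with an interval from -1.10 to 0.47 (adjusted p = 0.633). The intervals of both dimmer probe sets thus lay above that of 1434070_at. The log2 difference at 1434070_at was lower by 1.45 than that at 1421106_at and by 1.50 than that at 1421105_at. With Jag1 taken as the mean of its 3 probe sets, the log2 difference was -0.83, and Jag1 still passed (adjusted p = 0.0222). Which parts of the transcript the probe sets read was not analysed here, and the size of the fall in Jag1 differed with the probe set.

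The bases just before the transcription start are shown for Dll1 and Jag1, the ligands with a called difference. Each is the 250 bases upstream of the outermost RefSeq start, on GRCm38.p6, read along the minus strand, and capitals mark CpG dinucleotides. Dll1 lies at chr17:15376933-15377182 and Jag1 at chr2:137116521-137116770.
Dll1: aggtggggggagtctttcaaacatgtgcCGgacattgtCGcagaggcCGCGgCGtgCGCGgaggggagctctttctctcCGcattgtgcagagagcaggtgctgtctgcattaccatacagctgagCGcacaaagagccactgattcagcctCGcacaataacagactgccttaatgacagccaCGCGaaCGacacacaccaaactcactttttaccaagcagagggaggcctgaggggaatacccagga
Jag1: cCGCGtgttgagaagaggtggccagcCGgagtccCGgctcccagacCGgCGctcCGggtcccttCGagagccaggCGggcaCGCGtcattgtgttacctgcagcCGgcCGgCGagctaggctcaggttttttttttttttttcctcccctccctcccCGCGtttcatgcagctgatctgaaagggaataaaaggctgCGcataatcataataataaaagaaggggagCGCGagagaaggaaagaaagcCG
The Dll1 window held 13 CpG dinucleotides and the Jag1 window 20, against a median of 6 in windows of this length over all 32851 starts. GC content was 56.0% and 57.2%, with a median of 52.4% over all starts. The core letters of the Rbpj motif, TGGGAA, were searched on both strands and are in 21.6% of all windows. They were in none of the windows of the 8 receptor and ligand genes. The Jag2 window, chr12:112929496-112929745, lay within the listed gene (112907803-112929812), and those of Notch3 and Notch4 reached into theirs. CTTTGAA or CTTTGAT, letters bound by the TCF and LEF factors of Wnt signalling, are in 7.48% of all windows on either strand and were in none of the 8. This says only that these letters are absent from these windows.

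Notch1 was the receptor with a called difference. Its brighter probe set, 1418634_at, read 1225 and 1049 in wild-type kidneys and 682 and 771 in mutant kidneys, with no overlap. The means were 1137 ± 124 (SD, n = 2) and 726 ± 63.4 (SD, n = 2). The log2 difference was -0.63 ± 0.13 (SE), 1.55-fold lower, with an interval from -0.93 to -0.34 and a limma adjusted p of 0.0187. The dimmer probe set, 1418633_at, read 553 and 248 against 247 and 193. Wild-type replicate 1 was far above the other 3 arrays and wild-type replicate 2 only just above mutant replicate 1. Its log2 difference was -0.72 with an interval from -1.50 to 0.054, and it did not pass (adjusted p = 0.226).

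The call of Notch1 was less firm than those of Dll1 and Jag1. At 1418634_at it was lost without mutant replicate 1 (limma adjusted p = 0.103), where the log2 difference was -0.55, and without the intensity trend in the variance model (adjusted p = 0.108). It was also lost when both Notch1 probe sets were averaged (adjusted p = 0.0708, log2 difference -0.68). Without wild-type replicate 2 the dimmer probe set passed as well (adjusted p = 0.0037, log2 difference -1.28).

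**Figure D2:**
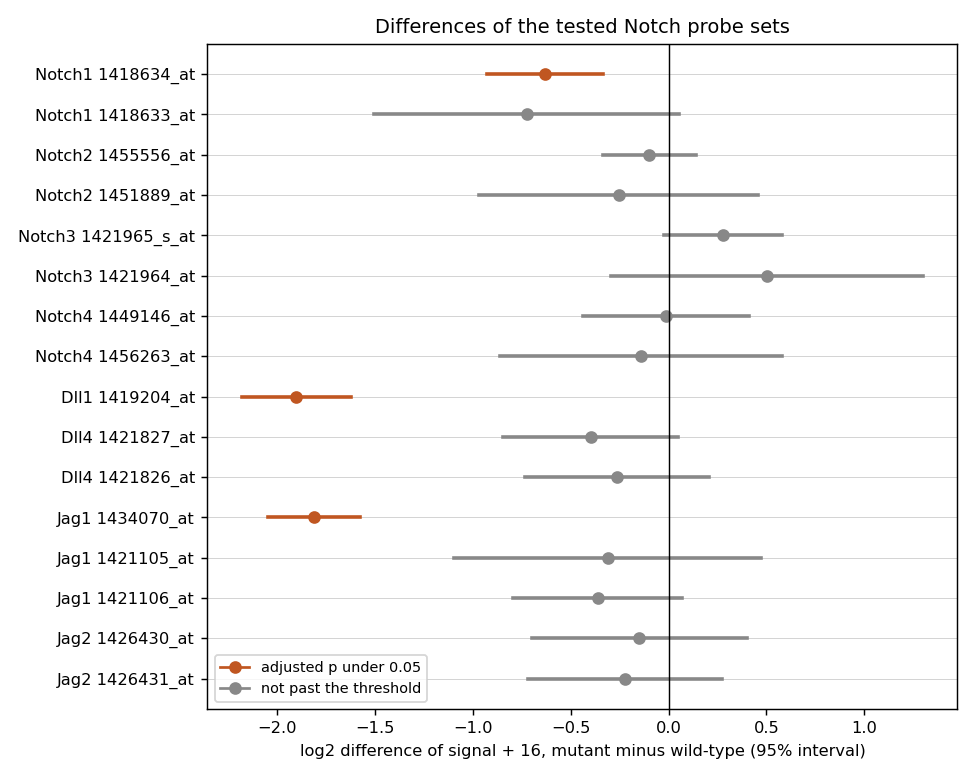
Log2 difference of signal + 16, mutant minus wild-type, with its 95% interval from the limma fit, for the 16 tested Notch receptor and ligand probe sets, coloured by whether the adjusted p was below 0.05. The 3 called probe sets, of Dll1, Jag1 and Notch1, lie at -1.90, -1.81 and -0.63, and the intervals of the other 13 include 0.

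Notch2, the receptor that nephron formation most depends on, did not pass. Its brighter probe set, 1455556_at, read 2006 and 2239.9 in wild-type and 1868 and 2094 in mutant kidneys, and the groups overlapped. The log2 difference was -0.10 ± 0.10 (SE), and the interval from -0.34 to 0.14 leaves room for a level up to 1.26-fold lower or 1.10-fold higher (limma adjusted p = 0.617). The dimmer probe set, 1451889_at, read 276 and 324 against 172 and 355, a spread within the mutant group wider than the whole wild-type range (log2 difference -0.26, interval -0.97 to 0.46).

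Notch3 was the gene of the 8 whose difference was above 0. Probe set 1421965_s_at read 1859 and 1627 in wild-type kidneys and 1869 and 2384 in mutant kidneys. Mutant replicate 1 was barely above wild-type replicate 1, and mutant replicate 2 was the highest of the 4. The log2 difference was 0.28 ± 0.13 (SE) with an interval from -0.026 to 0.58, and it did not pass (limma adjusted p = 0.234). Probe set 1421964_at read 303 and 136 against 352 and 249.9, with overlapping groups and a log2 difference of 0.50 (interval -0.29 to 1.30, adjusted p = 0.422). That value turned on single arrays: it was 1.04 and passed without wild-type replicate 1 (adjusted p = 0.0306), and was -0.028 without wild-type replicate 2.

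Notch4 gave the smallest difference. Probe set 1449146_at read 391 and 411 in wild-type and 461 and 342 in mutant kidneys, so the mutant arrays lay on either side of the wild-type arrays. The log2 difference was -0.014 with an interval from -0.44 to 0.41 (limma adjusted p = 0.975). At 1456263_at the signals were 134 and 103 against 121 and 90.9, with a log2 difference of -0.14 (interval -0.86 to 0.58). Probe set 1436901_at, at 84.7 and 55.7 against 73.3 and 77.4, was under the lowest mean level kept and was not tested. It was the member just outside the filter, with a mean level of 72.1, and 1456263_at was the one just inside it, at 111.

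The other Delta ligand, Dll4, read lower in the mutant at both probe sets without passing. Probe set 1421827_at read 306 and 388 in wild-type and 252 and 263 in mutant kidneys, and its log2 difference was -0.40 ± 0.19 (SE) with an interval from -0.85 to 0.049 (limma adjusted p = 0.245). Probe set 1421826_at read 275 and 338 against 231 and 273 (log2 difference -0.26, adjusted p = 0.482). The groups did not overlap at either probe set, though at 1421826_at mutant replicate 2 was within 2 units of wild-type replicate 1. A fall of up to 1.80-fold at the brighter probe set lies within the interval.

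Jag2, the other Jagged ligand, had overlapping groups at both probe sets. Probe set 1426430_at read 362 and 239 in wild-type and 242 and 288 in mutant kidneys (log2 difference -0.15, interval -0.70 to 0.40). Probe set 1426431_at read 305 and 254 against 266 and 210.0 (log2 difference -0.22, interval -0.72 to 0.27). The limma adjusted p was 0.758 and 0.585.

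Counted by overlap, both mutant arrays were below both wild-type arrays at 7 of 17 probe sets: both of Notch1, the 1 of Dll1, both of Dll4, and 1434070_at and 1421106_at of Jag1. Over all tested probe sets this share was 28.0%. Both mutant arrays were above both wild-type arrays at 1 probe set, Notch3 1421965_s_at, against 26.1% of all tested probe sets. The groups overlapped at the other 9, which include every probe set of Notch2, Notch4 and Jag2. Notch4 1436901_at, among these 9, was not tested, so the counts to set beside these shares are 7 and 1 of 16.

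Within each kind of molecule the fitted differences of the brightest probe sets were unequal for the pairs named here. The log2 difference of Dll1 was lower by 1.50 than that of Dll4, and the intervals, -2.18 to -1.62 and -0.85 to 0.049, did not meet. That of Jag1 at 1434070_at was lower by 1.66 than that of Jag2, again with separate intervals. This did not hold at the dimmer Jag1 probe sets. The intervals of 1421106_at (-0.79 to 0.07) and 1421105_at (-1.10 to 0.47) met that of Jag2 (-0.70 to 0.40). Notch1 was lower by 0.91 than Notch3, with separate intervals, and by 0.53 than Notch2, whose interval met that of Notch1. The interval of Notch4, -0.44 to 0.41, met that of Notch1, -0.93 to -0.34, as well. At the dimmer probe sets the intervals of Notch1 (-1.50 to 0.054) and Notch3 (-0.29 to 1.30) met. An exact two-sided permutation test of such a difference over 4 arrays cannot go below 0.333, and all 6 pairs compared, the 2 pairs of Jag1 probe sets included, gave this value before and after Benjamini-Hochberg adjustment. Signals of different probe sets are not comparable as levels, so no order of abundance among the 8 genes is given.

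Further along the pathway, genes were described by role from a list of 48, of which 45 were on the array under 1 gene and 43 were tested. In all, 3 were called lower and 4 higher, with a median log2 difference of 0.057, beside 5.82% and 6.70% of all genes tested, which for 43 genes is close to these counts. The higher count was 12 without wild-type replicate 1, 1 without mutant replicate 1 and 2 without mutant replicate 2, and the lower count was 5 without wild-type replicate 2. The lower genes were all among the 7 targets and feedback regulators, where 3 fell, 0 rose and the median was -0.59. Nrarp, a feedback inhibitor, fell by 1.44 on the log2 scale, from 1833 ± 135 to 666 ± 34.2 (SD, n = 2 each, limma adjusted p = 0.00023), and its other tested probe set was lower too (log2 difference -2.22). Hey1 fell by 1.14, from 1143 ± 108 to 508 ± 1.84 (adjusted p = 0.00112). Hes5, a repressor turned on by Notch, read 191 and 202 in wild-type against 26.0 and 76.3 in mutant kidneys, a log2 difference of -1.77 (adjusted p = 0.032), not called without mutant replicate 1 (adjusted p = 0.0678), without the intensity trend or with no filter (0.0903), and below the filter without either wild-type array. Heyl, Hey2, Hes1 and Hes6 did not pass.

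Genes that carry, cut or modify the receptors and ligands mostly did not pass. Of 8 cleavage enzymes 0 passed, with a median of -0.12. The smallest p belonged to Aph1b, a gamma-secretase subunit (log2 difference -0.40), Furin, which cuts the receptor during its transport (-0.30), and Adam10, which makes the first cut after ligand binding (0.23). Their limma adjusted p was 0.170, 0.191 and 0.437. The other tested probe set of Aph1b was called lower: it read 439 and 538 in wild-type and 229 and 281 in mutant kidneys (log2 difference -0.90, adjusted p = 0.0221). The mean of both Aph1b probe sets also passed (-0.65, adjusted p = 0.0312), and Adam10 passed without mutant replicate 2 (0.53, adjusted p = 0.0363). Of 5 sugar transferases 0 passed: Poglut1 had a log2 difference of 0.35 (adjusted p = 0.0968), Lfng, a fringe enzyme that modulates ligand choice, -0.49 (0.141) and Pofut1 0.32 (0.171). Without wild-type replicate 1 Poglut1 and Pofut1 passed as higher (adjusted p = 0.0304 and 0.0146), and without wild-type replicate 2 Lfng passed as lower (0.0272).

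Of 11 genes for ligand and receptor trafficking, 2 were higher and 0 lower, with a median of 0.38. The higher genes were Neurl1a (log2 difference 0.61, limma adjusted p = 0.0283) and Mib1 (0.46, adjusted p = 0.0375), ubiquitin ligases that act on ligands. Neurl1b read 183 ± 76.4 and 359 ± 51.9 (SD, n = 2 each) without passing (adjusted p = 0.0697), but passed after centring each array on its median (0.00602) and also without wild-type replicate 1 (0.00277). Dtx2, which did not pass at the probe set of highest mean (adjusted p = 0.171) and was chosen after its values were seen, was called higher at its other tested probe set (log2 difference 0.95, adjusted p = 0.0238). Of 7 genes of the nuclear complex, Rbpj was higher (0.43, adjusted p = 0.033), and Maml1 (0.26, adjusted p = 0.332, and 0.0250 without wild-type replicate 1) and Kat2b (-0.16, adjusted p = 0.538) did not pass. Of 5 further ligands, Dlk1, a non-canonical ligand, was higher (0.90, adjusted p = 0.0146), while Egfl7 (-0.26, adjusted p = 0.206) and Cntn1 (0.21, adjusted p = 0.666) did not pass. Calls in the higher direction depended on the scaling, filter, arrays and probe sets used. Neurl1a and Mib1 were lost without either mutant array (adjusted p = 0.123 to 0.165), as was Rbpj (0.0646 and 0.237). Mib1 was also lost with quantile normalization (adjusted p = 0.0519), after centring each array on its median (0.0886), with no filter (0.0718) and without wild-type replicate 1 (0.0606), and Rbpj with centring (0.102) and no filter (0.0621). Without the intensity trend all 4 higher calls were lost. Averaging all probe sets of a gene also ended the calls of Neurl1a (adjusted p = 0.500), Mib1 (0.242), Rbpj (0.0742) and Dlk1 (0.216), and none of their 8 further tested probe sets passed. Over the whole list, 36 further probe sets of 24 genes were tested, and 2 were called lower (Nrarp and Aph1b) and 1 higher (Dtx2).

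**Figure D3:**
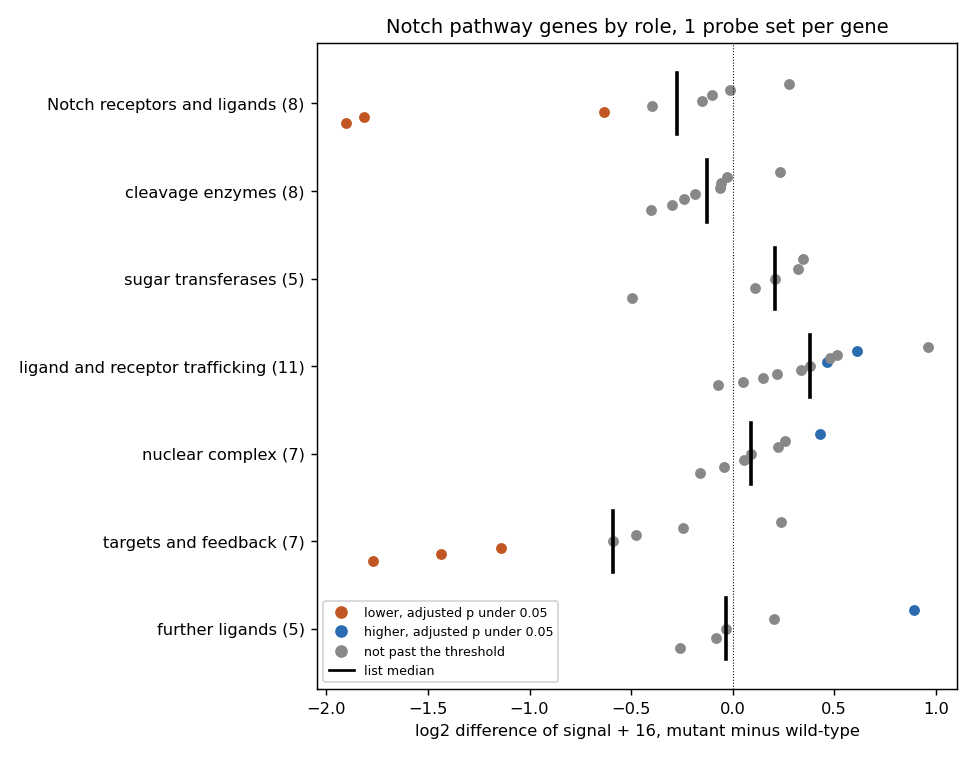
Log2 difference of signal + 16, mutant minus wild-type, for the Notch receptors and ligands and for the other Notch pathway genes by role, 1 probe set per gene, with the number tested in brackets and the list median as a bar. Called lower genes lie among the receptors and ligands (3 of 8) and the targets and feedback regulators (3 of 7), and called higher genes among trafficking genes (2 of 11), the nuclear complex (1 of 7) and further ligands (1 of 5).

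Markers of the cells that could hold these transcripts moved as well, and their part in the differences was not tested. The 8 tested markers of the renal vesicle and early nephron all fell, with log2 differences from -5.16 to -0.98 and a median of -1.82. The difference was -1.90 for Dll1. For Jag1 it was -1.81 at 1434070_at and -0.83 with its probe sets averaged. The summed signal over 9 vesicle and early nephron markers was 10746 and 10766 in wild-type and 3265 and 3118 in mutant kidneys. Osr2 was 35.6-fold lower (limma adjusted p = 3.36e-05) and Dkk1, a Wnt antagonist, 4.80-fold lower (adjusted p = 7.39e-05). Fgf8 did not pass the filter. Of 8 progenitor markers 3 fell and 1 rose, with a median of -0.025: Cited1 fell and Osr1 rose, the latter a call lost without mutant replicate 2.

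Vessel markers stood beside Dll4, Notch4 and Notch3. Of 14 endothelial markers 4 fell and 0 rose, with a median of -0.25, and their summed signal was 16015 and 15471 in wild-type and 12225 and 12690 in mutant kidneys. Cldn5 was 1.84-fold and Plvap 1.76-fold lower (limma adjusted p = 0.00308 and 0.00223), while Pecam1 and Cdh5, chosen after their values were seen, had log2 differences of -0.006 and -0.091 and did not pass. The count of 4 became 2 without either mutant array and 2 with arrays centred on their medians. Of 5 arterial markers, with a median of 0.012, Gja4 fell by 0.63 on the log2 scale. That call was lost without wild-type replicate 2 or either mutant array. Hey2 (-0.59), Efnb2 (0.050), Nrp1 (0.14) and Unc5b (0.012) did not pass, and Gja5 did not pass the filter. Of 9 mural markers, the list to set beside Notch3, 3 fell and 0 rose, with a median of -0.35, against 0.28 for Notch3. Tagln was 2.01-fold and Rgs5 1.68-fold lower, and the mural count was smaller without mutant replicate 2. Pdgfrb and Kcnj8, chosen after their values were seen, had log2 differences of -0.068 and 0.15 and did not pass. The summed mural signal was 10345 and 11755 in wild-type against 8793 and 8066 in mutant kidneys.

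Of the other lists, those of stroma, skeletal muscle and erythroid cells moved upward. Of 8 stromal markers 6 rose and 0 fell (median 0.93), with summed signals of 34896 and 31092 in wild-type and 50505 and 50081 in mutant kidneys. Pdgfra was 2.80-fold and Foxd1 3.08-fold higher. Of 7 tested skeletal muscle markers 6 rose (median 1.84), with sums of 1943 and 1115 against 7615 and 7187. Actc1 was 6.21-fold and Myog 9.41-fold higher, and Myf5 did not pass the filter. Of 5 erythroid markers 3 rose, all globin genes: Hba-x (4.47-fold), Hbb-y (2.11-fold) and Hbb-bh1 (6.27-fold). The other erythroid markers, Alas2 and Slc4a1, did not pass (log2 differences 0.30 and 0.43, limma adjusted p = 0.223 and 0.306). Of 8 ureteric markers 2 fell, Calb1 and Etv5, a count that was smaller without mutant replicate 2. The ureteric median was -0.21. Ret, Wnt11 and Wnt7b were below 0 and Wnt9b, Hoxb7 and Gata3 above 0, all without passing. Of the 2 further tested probe sets of Calb1, 0 were called lower, against 2 of 2 for Etv5 and 1 of 1 for Ret. Of 3 neural and Schwann cell markers Fabp7 fell, but did not pass in any fit with 1 array fewer. Elavl4 did not pass the test and Tubb3 did not pass the filter. Of 7 macrophage markers 0 passed, and Ptprc and Lyz2 had the smallest p. No marker was at 0 on all arrays.

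**Figure D4:**
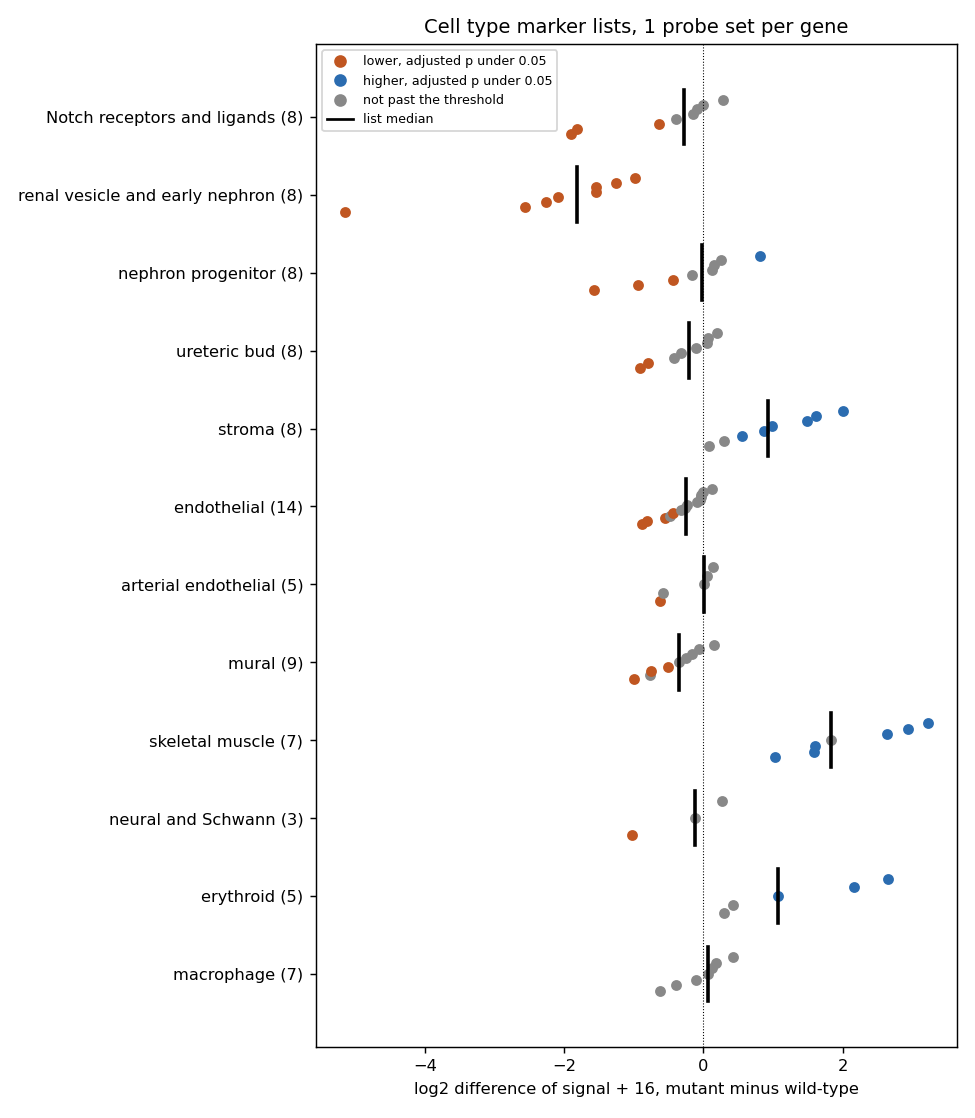
Log2 difference of signal + 16, mutant minus wild-type, for the Notch receptors and ligands and for 11 cell type marker lists, 1 probe set per gene, with the number tested in brackets and the list median as a bar. All 8 renal vesicle and early nephron markers were called lower (median -1.82), and 6 of 8 stromal and 6 of 7 skeletal muscle markers were called higher.

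The genes with the profile most like each called member were found among the 13432 genes tested, as the 3 with the smallest root mean square distance over the 4 arrays after each gene was set against its own wild-type mean. For Dll1 they were Tmem174, Ptpro and Ndnf, at distances of 0.0126, 0.0489 and 0.0579 on the log2 scale. For Jag1 they were Sprr2f (0.0533), Ndnf (0.0715) and Ptpro (0.081). Ptpro, which encodes a receptor phosphatase of podocytes, read 618 and 708 in wild-type and 159 and 179 in mutant kidneys. For Notch1 they were Klhl14, Ccdc88c and Wdr54 (0.0231, 0.0318 and 0.0319). With 4 arrays this only describes the profiles.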

How the data were processed

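The deposited values are signal intensities on a linear scale, 1 per probe set and array, made by the authors with GCOS, per the submitters' processing notes. Neither its version nor the way probes were summarised and scaled is given in the sources used here. Detection calls were not used here.

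Signals were transformed to log2(signal + 16) with no further normalization. After 64 control probe sets and the lowest 40% by mean were left out, 27022 remained. A 2-group linear model was fitted with limma 3.58.1 in R 4.3.3 (lmFit and eBayes, with the prior variance trending on intensity). Tests were two-sided, with Benjamini-Hochberg adjustment over all probe sets tested. The prior degrees of freedom were 6.16. The fit was also run on simulated data with independent noise and no strain or pool difference. That run does not bear on how genotype, strain and pool size go together here.

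Genes were named from the platform annotation. All 8 members matched by gene identifier the RefSeq gene table of GRCm38.p6. Promoter sequences were matched to the members by gene symbol. Members and lists were chosen with earlier results of these data known. Named were all members, up to 3 genes per pathway role and 2 per marker list with the smallest p, markers that failed the filter, and the 3 most similar profiles. In the lists, 8 entries were not analysed here, and Maml2 and Dner did not pass the filter. Alternatives were other scalings, pseudocounts, filters, variance models, probe set averaging, the replicate number as a block, and leaving out each array.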

Additional observations from a re-analysis of the deposited data

How the results depend on the processing

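The calls of Dll1 and Jag1 held under all 14 alternatives, with log2 differences from -1.99 to -1.79 for Dll1 and from -1.91 to -0.83 for Jag1, the last when its probe sets were averaged. That of Notch1 held under 11 of 14. The count of receptor and ligand probe sets called lower was 2 to 4 and of those called higher 0 to 1 when 1 array was left out. Over all probe sets, calls numbered 433 lower and 425 higher without the intensity trend, and 871 to 1903 lower and 701 to 2105 higher when 1 array was left out. Of the other pathway genes, 2 to 5 were lower and 1 to 12 higher when 1 array was left out, and higher calls numbered 2 with no filter, 0 without the intensity trend and 1 with probe sets averaged. Titles share replicate numbers, but same-numbered arrays did not deviate together (correlation of deviations across probe sets -0.017), so the numbers were not taken as pairs. With the replicate block, calls numbered 1409 lower and 1504 higher over all probe sets, 3 receptor and ligand probe sets were lower, Neurl1b passed (adjusted p = 0.0304) and Fabp7 did not. Without the intensity trend, 1 endothelial, 0 mural, 0 arterial and 0 progenitor markers were called lower and 3 muscle markers higher. With no filter, 1 mural, 1 ureteric and 0 arterial markers were lower. Values that changed sign had not passed the test: Notch4 1449146_at was 0.0023 with arrays centred on their medians, and with probe sets averaged Adam10 was -0.056 and Kat2b 0.015. Leaving out 1 array gave -0.75 to 0.24 for Notch2 1451889_at, -0.028 to 1.04 for Notch3 1421964_at, -0.22 to 0.19 for Notch4 1449146_at, -0.32 to 0.036 for Notch4 1456263_at, -0.79 to 0.16 for Jag1 1421105_at, -0.43 to 0.14 for Jag2 1426430_at and -0.061 to 0.53 for Adam10. The cause of these changes was not tested. Signal over background was not measured here.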
